A study of Homo sapiens with 15 samples.

Results

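The 10 genes described here make, sense or degrade prostaglandins. They were chosen by name, with the fall of PTGDS at senescence already known from these data, from the 57272 genes in the deposited count table. They comprise the cyclooxygenases PTGS1 and PTGS2, the terminal synthases PTGDS, PTGES, PTGES2, PTGES3 and PTGIS, the prostaglandin E2 receptors PTGER2 and PTGER4, and the degrading enzyme HPGD. All 10 were matched to their Ensembl identifiers by GENCODE 44. Of these genes, 8 passed the filter on low counts and 2, PTGIS and HPGD, did not. A gene could pass that filter on the strength of the groups in which it is high, so counts over the 8 genes are a description.

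The measurements are RNA sequencing counts from MRC-5, a line of human fetal lung fibroblasts with a limited lifespan, grown at low oxygen. There were 5 conditions with 3 replicates each. Young cells, collected at population doubling 30, carried the empty pWPIR-GFP vector, the TRF2-expressing pWPIR-GFP-TRF2 vector, or an siRNA against LMNB1 (siLMNB1), with the empty vector according to the column names of the count table. TRF2 is a telomere-binding protein of the shelterin complex, and LMNB1 encodes lamin B1 of the nuclear lamina. Senescent cells had been infected with the empty or the TRF2 vector before they stopped dividing, and were collected when growth had reached a plateau. The study reports that TRF2 was expressed for days in young cells, and over many population doublings in senescent ones. It also reports that senescent cells with TRF2 stopped dividing at a later doubling than those with the empty vector. All cells other than those with siLMNB1 received a control siRNA. The study calls the replicates of its young and senescent cells biological, but the sources used here do not say how cultures were kept apart, and p-values measure the spread between these samples. The labels mark every senescent library, and no young one, as a reanalysis, and so the senescent state and the reanalysis cannot be told apart.

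Total counts lay between 26725885 and 43116046 per library. All 11 fibroblast markers checked were detected in each group, with summed levels between 24597 and 42209 counts per 1000000 (CPM). Epithelial markers summed to between 2.28 and 11.0 CPM, endothelial markers to between 1.49 and 4.15 CPM and immune markers to between 11.2 and 52.6 CPM. The highest epithelial sum came from a single library of young cells with the empty vector. It held 7.29 CPM of KRT5, where the median of that group was 0. TERF2, which encodes TRF2, was higher with its vector by 3.03 on the log2 scale in young cells (adjusted p = 2.3e-05, edgeR quasi-likelihood test), and LMNB1 fell by 4.48 with siLMNB1 (adjusted p = 2.3e-12). The libraries also differed in how counts followed the base composition of genes. The slope of log2 CPM per 10 percentage points of GC, relative to the young cells with the empty vector, was 0.460 to 0.823 in the senescent libraries and between -0.0063 and 0.134 in the young ones. A second fit therefore removed a GC and length trend from each library. Its values are given beside many of the results that they change, and some only in the closing section on processing.

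Prostaglandins are lipid signals made from arachidonic acid, which phospholipases A2 release from membranes. A cyclooxygenase turns the acid into prostaglandin H2, and a terminal synthase turns that into prostaglandin E2, D2 or prostacyclin. Lung fibroblasts are known as a source of prostaglandin E2, which acts back on them through the receptors EP2 and EP4. Both receptors raise cyclic AMP, and the signal ends when the prostaglandin is taken up and oxidized by the enzyme that HPGD encodes.

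Between genes, levels were compared only as CPM per kb of exon. In young cells with the empty vector the order ran from PTGES3 at 97.2 ± 2.67 and PTGS1 at 63.9 ± 1.47 CPM per kb (SD, n = 3), through PTGER2 at 15.9 ± 1.31, PTGES2 at 7.96 ± 0.461 and PTGER4 at 3.36 ± 0.133, to PTGS2 at 1.31 ± 0.168, PTGES at 1.09 ± 0.129 and PTGDS at 0.745 ± 0.126. PTGS2 and PTGES overlapped in this order, and the other neighbours did not. The length used counts all annotated exons, 2712 bases for PTGDS and 5484 for PTGS2, where their main transcripts have 812 and 4510. The last place of PTGDS therefore rests on the length used. In senescent cells with the TRF2 vector PTGS1 came first, at 111 ± 6.34 CPM per kb, and PTGES3 second, at 56.8 ± 0.929. In bulk RNA, fewer expressing cells and less RNA per cell cannot be told apart.

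**Figure D1:**
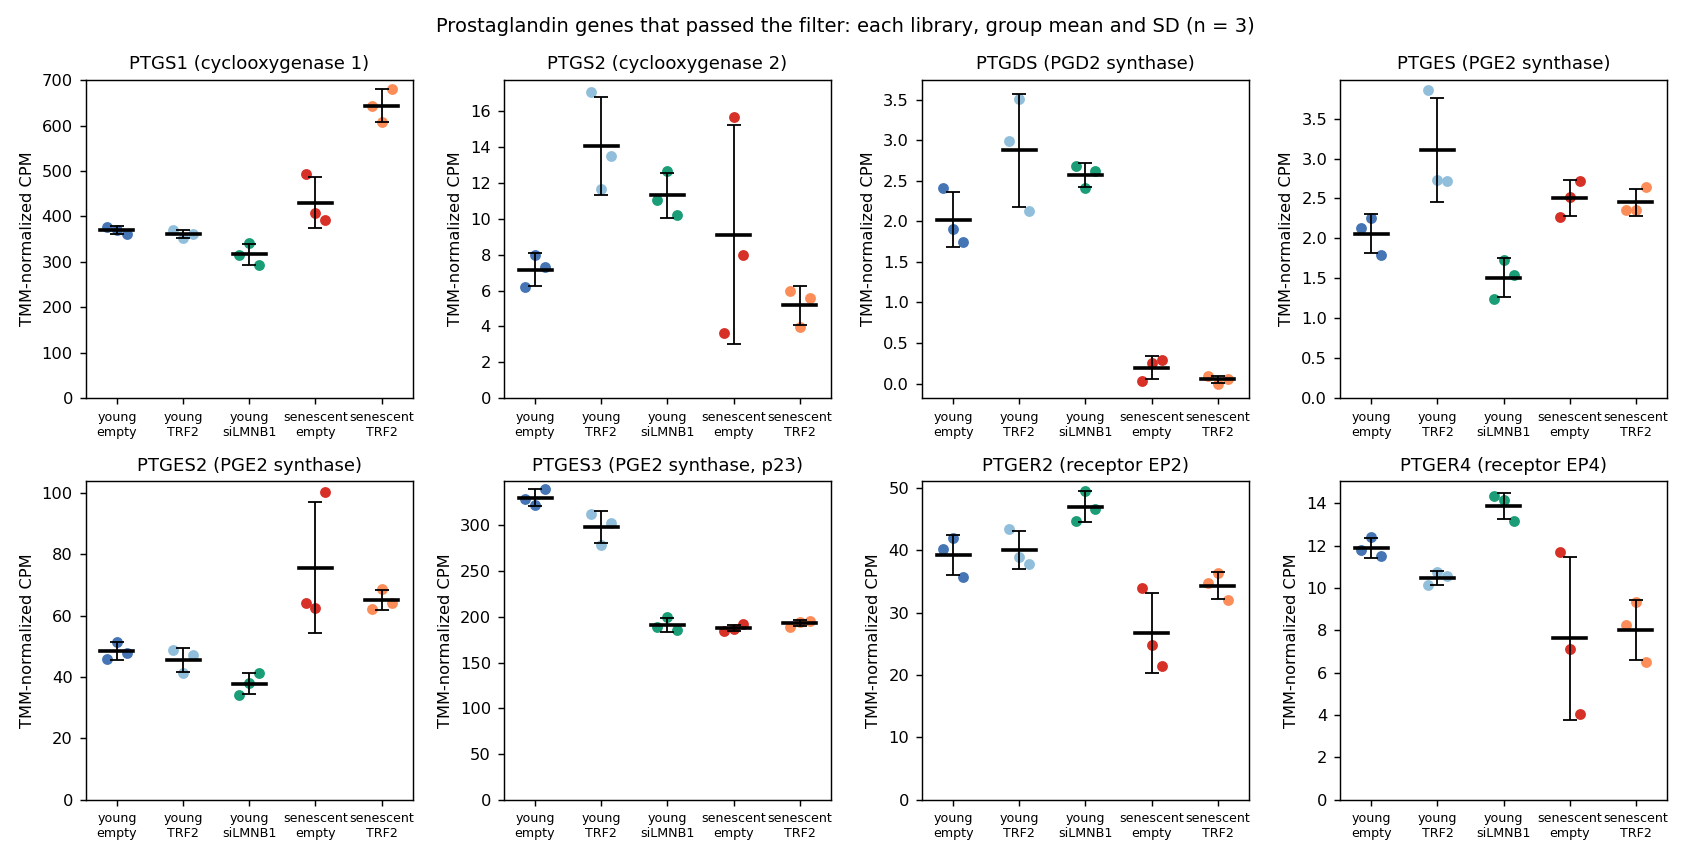
Level of each prostaglandin gene that passed the filter, in CPM after TMM normalization (vertical axes, linear), in the 15 libraries. Points are libraries, lines and bars the group mean and SD (n = 3); PTGES3 sits at 185 to 200 CPM in the siLMNB1 and both senescent groups, below all other young libraries, and PTGDS sits at or below 0.292 CPM in every senescent library.

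Of the 7 genes with a test, 5 passed at an adjusted p of 0.05 when senescent cells were compared with young cells, both with the empty vector, where 64.7% of all 15799 genes tested did. PTGS1 and PTGES2 were higher, beside 32.7% of all genes, and PTGES3, PTGER2 and PTGER4 were lower, beside 31.9%. None of the 5 reached a log2 change of 1, the threshold for a differentially expressed gene (DEG), which 28.5% of all genes passed. DESeq2 also called 5 of the 7, and 5 passed at an unadjusted p of 0.05. Between the senescent and young cells that both carried TRF2, 4 of 7 passed, beside 58.3% of all genes, and PTGS2 was the 1 DEG, beside 24% of all genes. With siLMNB1, PTGES3 was the only 1 of 8 to pass, beside 32.5% of all genes, and it was also a DEG at the threshold of 0.58, beside 18.3%. At senescence the counts of 5 and 4 of 7 are thus close to the share of all genes. PTGDS was left out of the counts at senescence, because its fall there was known when the genes were chosen.

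Again without PTGDS, the libraries of the groups did not overlap for 5 of 7 genes at senescence with the empty vector, against 64.7% of all genes, and for 7 of 7 with TRF2 in both, against 71.4%. They did not overlap for 8 of 8 with siLMNB1, against 57.4%. The median log2 change of the 7 genes was 0.22 at senescence with the empty vector and -0.34 with TRF2 in both, and that of the 8 genes was -0.0022 with siLMNB1, while that of all genes was 0.02, -0.02 and 0.04.

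PTGS1 and PTGS2 encode the cyclooxygenases, the first known as the constitutive and the second as the inducible form. Their RefSeq promoters (250 bases before to 50 after the start, GRCh38.p14, 5′ to 3′) are shown because both genes changed with the conditions in different ways. Of 35116 promoters, 11.5% hold TATAAA, 24.6% hold TGACG, a part of the cAMP response element, and 45.0% hold the GC box GGGCGG, on either strand. Capitals mark these letters or their reverse complement. PTGS1 has 2 annotated starts. The promoter of the first, chr9:122370283-122370582 on the plus strand, is printed and holds TATAAA on the other strand from base -208 and GGGCGG from base -58, counted from the start. That of the second, chr9:122375052-122375351, holds GGGCGG on the other strand from base -202 and no TATAAA. Which start the cells used was not tested. The PTGS2 promoter, chr1:186680374-186680673 on the minus strand, holds TATAAA from base -32, and TGACG on the other strand from bases -58 and 24. Matches of this kind are no evidence of binding.
PTGS1: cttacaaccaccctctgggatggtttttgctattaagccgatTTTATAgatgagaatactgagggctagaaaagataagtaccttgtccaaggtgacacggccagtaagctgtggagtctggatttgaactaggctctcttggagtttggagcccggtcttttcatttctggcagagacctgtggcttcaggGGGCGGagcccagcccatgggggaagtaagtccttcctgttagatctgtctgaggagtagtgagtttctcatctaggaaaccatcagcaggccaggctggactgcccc
PTGS2: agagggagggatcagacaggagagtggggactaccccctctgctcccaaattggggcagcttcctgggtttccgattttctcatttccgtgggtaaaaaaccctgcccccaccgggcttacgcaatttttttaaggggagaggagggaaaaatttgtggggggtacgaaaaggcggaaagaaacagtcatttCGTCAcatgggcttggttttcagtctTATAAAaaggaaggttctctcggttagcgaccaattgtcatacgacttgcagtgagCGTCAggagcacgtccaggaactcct

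PTGS1 (ENSG00000095303.17, GRCh38 chromosome 9, 122370530 to 122395703, plus strand) was highest in senescent cells with TRF2. Its levels were 377, 371 and 360 CPM in young cells with the empty vector and 370, 352 and 361 CPM with TRF2. They were 494, 407 and 391 CPM in senescent cells with the empty vector and 642, 608 and 681 CPM in senescent cells with TRF2. Each library of the last group lay above all others. The 6 immune markers also summed to more in that group, at 41.0 to 52.6 CPM against 11.2 to 38.1 CPM elsewhere. Most of that sum was KIT, a receptor tyrosine kinase, at 38.9 to 49.1 CPM, while CD14 had 2.08 to 3.50 CPM and PTPRC and LYZ had no counts there. Between the senescent groups the 11 fibroblast markers summed to more with TRF2 too, at 34345 to 39602 CPM against 24597 to 31810 CPM. Of these markers 8 passed as higher there and 0 as lower, beside 11.3% of all genes in either direction. The part of either set of markers in the result was not tested. In cells with TRF2, PTGS1 rose by 0.83 ± 0.09 (SE) on the log2 scale at senescence (adjusted p = 9.1e-07, edgeR), and by 0.70 with the GC and length offsets. With the empty vector it rose by 0.22 ± 0.09 (adjusted p = 0.0432), but the offsets left 0.05 (adjusted p = 0.672). That call was also lost without any 1 of the young empty-vector libraries or the senescent empty-vector replicate 1, where the change was 0.10 (adjusted p = 0.272).

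Within senescent cells, PTGS1 was higher with TRF2 than with the empty vector, by 0.58 ± 0.09 on the log2 scale (adjusted p = 9.4e-04). It was the only 1 of 8 genes to pass there, beside 11.3% of all genes, and the only 1 whose libraries did not overlap, against 26.8%. When only the 6 senescent libraries were fitted the change was 0.59 and the adjusted p 0.0937, with 2 genes called in all. In young cells TRF2 gave -0.03 ± 0.09 (adjusted p = 0.960). The difference between these responses, tested as an interaction, was 0.61 ± 0.13 (adjusted p = 0.0336, edgeR), and PTGS1 was again the only 1 of 8 to pass, beside 1.13% of all genes. The interaction call was lost when most of the single libraries were left out in turn, and when only the groups involved were fitted. Time with the TRF2 vector and the number of doublings also differed between these groups, and cannot be told apart from the state. The siLMNB1 libraries, at 314, 341 and 294 CPM, lay below the 3 control libraries, with a change of -0.22 ± 0.09 that missed the threshold (adjusted p = 0.0709). It passed with the offsets, with DESeq2 and when only the libraries compared were fitted.

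PTGS2 (ENSG00000073756.12, chromosome 1, 186671791 to 186680922, minus strand) was low and varied more between replicates. Its levels were 6.17, 7.99 and 7.33 CPM in young cells with the empty vector and 17.1, 11.7 and 13.5 CPM with TRF2. They were 3.64, 15.7 and 7.97 CPM in senescent cells with the empty vector and 5.99, 3.95 and 5.56 CPM in senescent cells with TRF2. Each young TRF2 library lay above each senescent TRF2 library, while the senescent empty-vector libraries spanned the young ones. With TRF2 in both, PTGS2 fell by 1.45 ± 0.34 on the log2 scale at senescence, 2.73-fold (adjusted p = 0.00151, edgeR). With the empty vector the change was 0.34 ± 0.34 (adjusted p = 0.383). The offsets raised it to 0.98 (adjusted p = 0.0175), and its sign rested on single libraries: it was -0.30 without senescent replicate 2 and 0.71 without replicate 1 (adjusted p = 0.351 and 0.0161).

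Between the young groups PTGS2 was 1.97-fold higher with TRF2, 0.97 ± 0.33 on the log2 scale. The unadjusted p was 0.00935 and the adjusted p 0.322. With only those 6 libraries the adjusted p was 0.00384, and without the filter 5.2e-07. The libraries of these groups did not overlap for 4 of 8 genes, against 23.6% of all genes. None of the 8 genes passed for TRF2 in young cells with edgeR or with DESeq2, beside 0.177% of all genes, and 3 (PTGS2, PTGES and PTGES3) had an unadjusted p below 0.05. With siLMNB1, at 11.0, 12.7 and 10.2 CPM, each library lay above the control libraries, and the change was 0.66 ± 0.33 (adjusted p = 0.144). The interaction of senescence and TRF2 was -1.79 ± 0.47 (adjusted p = 0.0877 with edgeR, 0.0141 with DESeq2). The protein-coding genes with the profile nearest to that of PTGS2 over the 15 libraries were RASGRP3, TRIB1 and TMEM156, at a root mean square difference of 0.31, 0.37 and 0.38 in log2 CPM, where the PTGS2 profile itself varied by 0.66. PTGS2 shares 3.99% of its exonic bases with the antisense RNA PACERR, and the strand setting of the counting is not given in the sources used here.

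PTGDS encodes lipocalin-type prostaglandin D synthase, which makes prostaglandin D2 and also carries lipophilic molecules. It lies on chromosome 9 (ENSG00000107317.13, 136975092 to 136981742, plus strand), 1.41 Mb from the end of the long arm, and 64.8% of its exonic bases are G or C. Its promoter, chr9:136977254-136977553 on the plus strand, is shown for comparison with those of the cyclooxygenases, and holds none of the 3 sets of letters.
PTGDS: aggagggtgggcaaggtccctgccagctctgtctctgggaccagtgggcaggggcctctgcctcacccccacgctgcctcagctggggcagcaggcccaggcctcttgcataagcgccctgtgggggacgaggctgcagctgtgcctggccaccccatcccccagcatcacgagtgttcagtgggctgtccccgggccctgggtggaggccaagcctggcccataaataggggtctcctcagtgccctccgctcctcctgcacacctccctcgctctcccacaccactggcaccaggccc

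PTGDS was detected with few counts. There were 69, 65 and 47 counts in young cells with the empty vector, 110, 118 and 68 with TRF2, and 82, 78 and 119 with siLMNB1. There were 1, 7 and 9 counts in senescent cells with the empty vector and 3, 0 and 2 in senescent cells with TRF2. The young and senescent libraries did not overlap. In CPM, the young libraries held 1.75 to 3.50 and the senescent ones 0 to 0.292, where 3 counts in a library stand for 0.0659 to 0.112 CPM. The summed counts, scaled by library size, were 10.1-fold lower at senescence with the empty vector (exact 95% interval 6.12 to 17.7) and 56.6-fold lower with TRF2 in both (24.0 to 176). These intervals cover counting error only. They leave out the spread between replicates and the choice of PTGDS by this fall, and are no test of it. The fitted log2 changes were -3.31 ± 0.42 and -5.71 ± 0.50, and with the offsets the first became -4.37. With 1 library left out the first lay between -3.75 and -2.86 and the second between -6.41, without senescent TRF2 replicate 1, and -5.19, without replicate 2. No test is given, since this fall guided the choice of genes.

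Other PTGDS comparisons did not pass. With siLMNB1 the change was 0.35 ± 0.30 on the log2 scale (adjusted p = 0.409), and with TRF2 in young cells it was 0.51 ± 0.30 (adjusted p = 0.631). The siLMNB1 libraries, at 2.69, 2.41 and 2.61 CPM, all lay above those with the empty vector, at 2.41, 1.91 and 1.75 CPM, though the nearest pair differed by less than the rounding. Between the senescent groups the change with TRF2 was -1.89 ± 0.74 (adjusted p = 0.110), on 5 counts against 17, a ratio of 3.93 (exact 95% interval 1.39 to 13.6). That interval covers counting error only and leaves out the spread between replicates. The change passed without senescent empty-vector replicate 1, at -2.35 (adjusted p = 0.0159).

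PTGDS shares exonic sequence with another annotated gene. In GENCODE 44 a read-through gene, ENSG00000284341, runs on the same strand from PTGDS into the neighbouring gene LCNL1. It shares 634 of the 812 bases of the PTGDS main transcript, or 78.1%, and it is not in the count table. None of the other 9 prostaglandin genes shares an exonic base with a gene that is absent from the table.

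**Figure D2:**
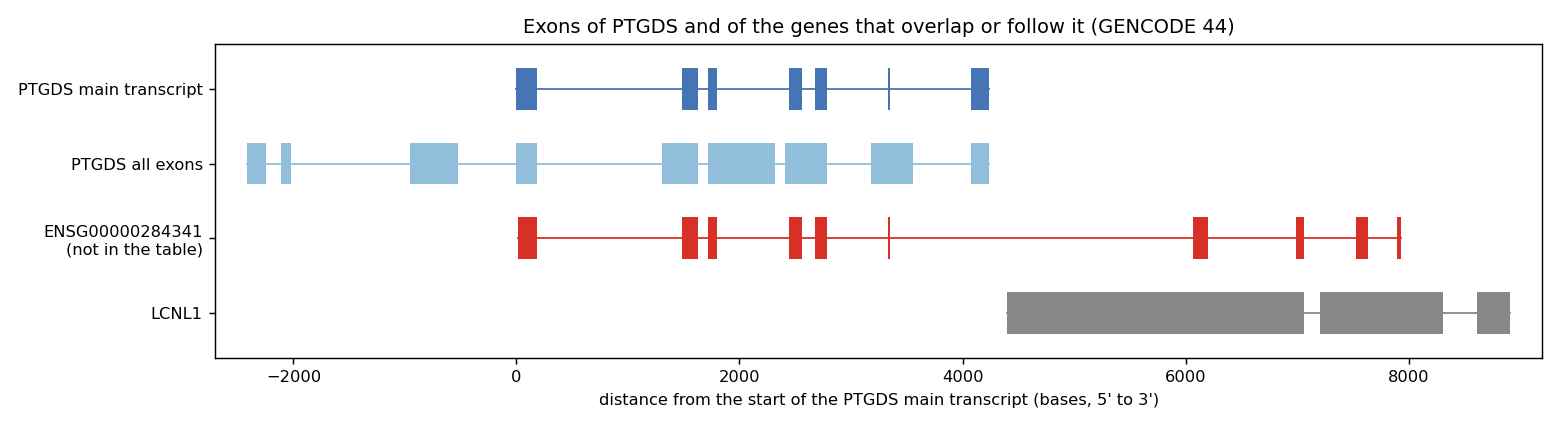
Exons (boxes) of the PTGDS main transcript, of all PTGDS transcripts, of the read-through gene ENSG00000284341 and of LCNL1, by distance in bases from the start of the PTGDS main transcript (horizontal axis, to scale). The read-through gene shares 634 of 812 bases of the PTGDS main transcript.

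Genes with such sharing were lower in the senescent libraries more often than others. Of 319 tested genes that share at least 50% of the main transcript with an absent gene, 74, or 23.2%, had a log2 change of -3 or less at senescence with the empty vector. Of the 14860 genes that share no exonic base with one, 265 did, or 1.78%. With TRF2 in both the shares were 25.4% and 2.54%. Among young cells they were 0% and 0.114% with siLMNB1, and 0% and 0.0606% with TRF2. Whether the reanalyzed senescent libraries and the young ones were counted with the same annotation was not tested. For PTGDS the reanalysis and the senescent state cannot be told apart.

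**Figure D3:**
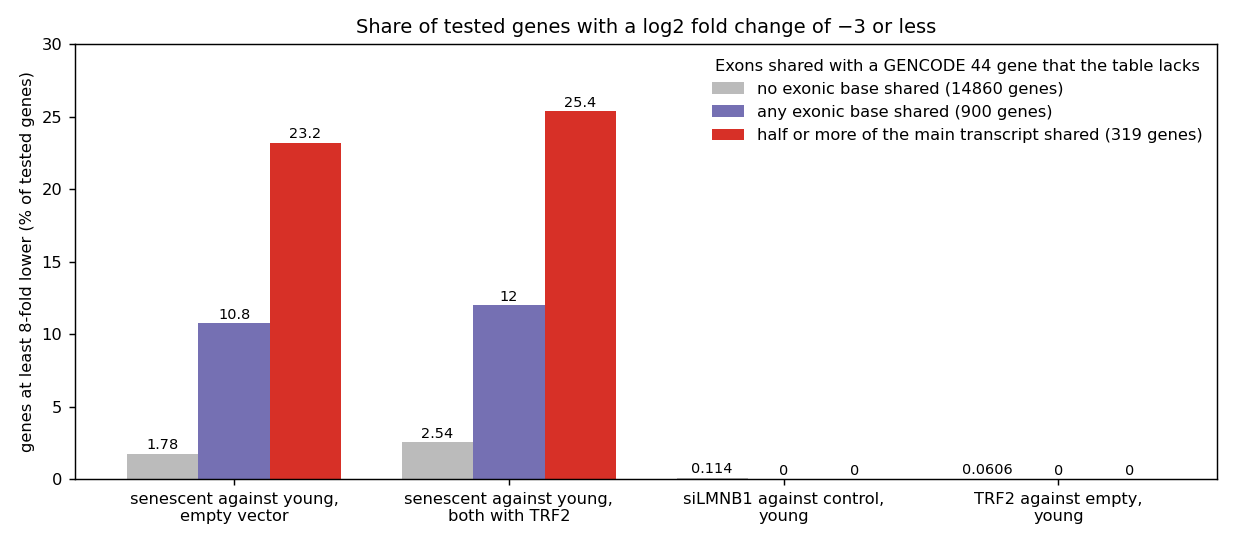
Share of tested genes, in percent (vertical axis, from 0), with a log2 fold change of -3 or less in 4 comparisons, by how much exonic sequence they share with GENCODE 44 genes that the count table lacks. The share is 23.2% and 25.4% for genes sharing at least 50% of their main transcript in the 2 senescence comparisons, and 0% for them in the 2 comparisons among young cells.

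Of the 23 annotated genes within 100 kb of PTGDS, 8 were tested. At senescence with the empty vector FBXW5, PAXX, ABCA2 and NPDC1 rose, by 1.23, 1.24, 2.33 and 2.71 on the log2 scale, and SAPCD2 was the 1 that fell, by 3.51, so that 5 of 8 passed beside 64.7% of all genes. In the comparison with TRF2 in both 7 of 8 passed, beside 58.3%, where the same 4 genes and CLIC3, at 1.24, rose, and SAPCD2 and UAP1L1, at -4.12 and -0.50, fell. SAPCD2 was also the only 1 of the 8 to pass with siLMNB1, at -1.51 (adjusted p = 3.5e-05, edgeR), beside 32.5% of all genes. None passed with TRF2 in young cells. The protein-coding genes nearest to PTGDS in profile were ST3GAL3, CRELD1 and QPCT, at a root mean square difference of 0.56, 0.62 and 0.62 in log2 CPM, where the PTGDS profile varied by 2.31. ST3GAL3 and CRELD1 share 10.0% and 22.5% of their exonic bases with genes absent from the table, and QPCT none.

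**Figure D4:**
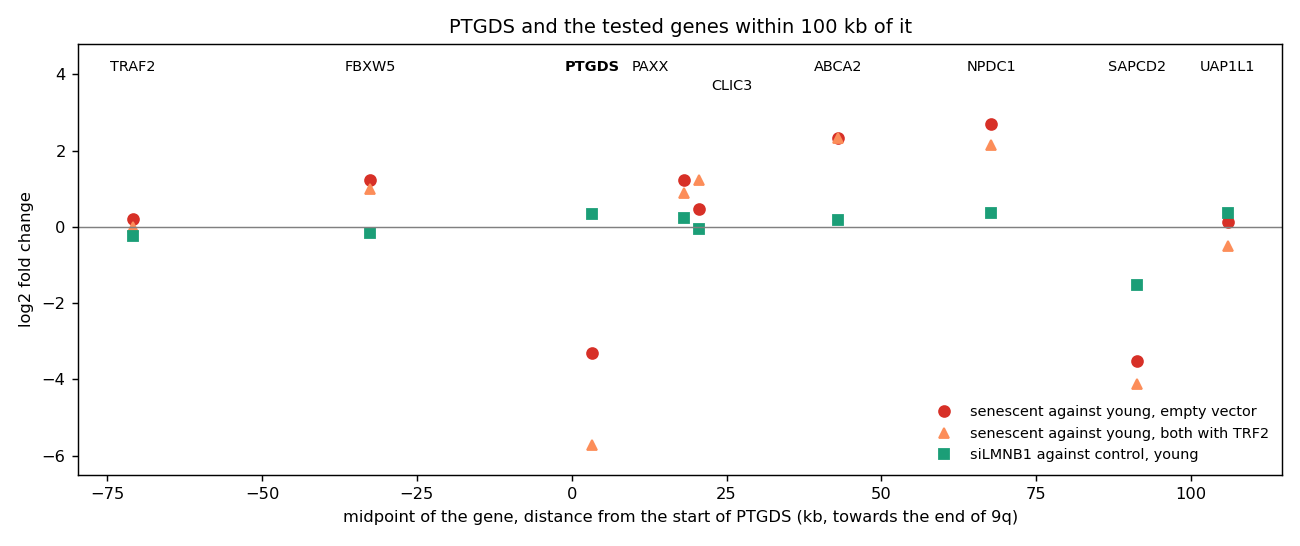
Log2 fold change (vertical axis) of PTGDS and the 8 tested genes within 100 kb, by distance of the midpoint of the gene from the PTGDS start in kb (horizontal axis), at senescence with the empty vector (circles), with TRF2 in both (triangles) and with siLMNB1 (squares). PTGDS and SAPCD2 lie below -3 at senescence, while ABCA2 and NPDC1 lie above 2.

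PTGES, PTGES2 and PTGES3 are named as prostaglandin E synthases. PTGES encodes the microsomal enzyme that is known to be induced with PTGS2, PTGES2 a membrane-associated form, and PTGES3 the protein p23, which is also a co-chaperone of HSP90. PTGES3 (ENSG00000110958.16, chromosome 12, 56663341 to 56688408, minus strand) was lower in 3 of the 5 groups. Its levels were 329, 322 and 340 CPM in young cells with the empty vector and 312, 279 and 303 CPM with TRF2. They were 189, 200 and 185 CPM with siLMNB1, 185, 187 and 192 CPM in senescent cells with the empty vector, and 189, 194 and 195 CPM in senescent cells with TRF2. The siLMNB1 and both senescent groups lay together, below every other young library.

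PTGES3 fell by 0.81 ± 0.07 on the log2 scale at senescence with the empty vector (adjusted p = 5.1e-08), by 0.63 ± 0.07 with TRF2 in both (adjusted p = 1.1e-06) and by 0.79 ± 0.07 with siLMNB1, 1.73-fold (adjusted p = 6.1e-07, all edgeR). The empty-vector and siLMNB1 comparisons share the same control libraries. All 3 calls held under every alternative run. Between the senescent groups the change with TRF2 was 0.04 ± 0.07 (adjusted p = 0.751).

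PTGES2 (ENSG00000148334.15, chromosome 9, 128120693 to 128128462, minus strand) was higher in the senescent libraries. Its levels were 46.0, 51.5 and 47.9 CPM in young cells with the empty vector, 48.7, 41.3 and 47.1 CPM with TRF2 and 34.3, 37.9 and 41.4 CPM with siLMNB1. They were 64.0, 62.6 and 100.4 CPM in senescent cells with the empty vector and 62.2, 68.8 and 64.2 CPM with TRF2. All senescent libraries lay above all young ones. The rise was 0.64 ± 0.15 on the log2 scale with the empty vector (adjusted p = 0.00110, edgeR) and 0.51 ± 0.15 with TRF2 in both (adjusted p = 0.00658). With the GC and length offsets these values became -0.11 and -0.06 (adjusted p = 0.327 and 0.593), so both calls and their direction were lost. Its exonic bases are 59.9% G or C. With siLMNB1 the change was -0.36 ± 0.15 (adjusted p = 0.0747), and -0.46 with the offsets (adjusted p = 0.00101).

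PTGES (ENSG00000148344.11, chromosome 9, 129738331 to 129753042, minus strand) stayed low in all groups. Its levels were 2.13, 2.26 and 1.79 CPM in young cells with the empty vector, 3.86, 2.73 and 2.72 CPM with TRF2 and 1.25, 1.73 and 1.54 CPM with siLMNB1. They were 2.27, 2.52 and 2.72 CPM in senescent cells with the empty vector and 2.36, 2.36 and 2.65 CPM with TRF2. The young TRF2 libraries were the highest and the siLMNB1 libraries the lowest, although differences were small. None of its comparisons passed in the edgeR fit. The change was 0.28 ± 0.20 at senescence with the empty vector (adjusted p = 0.222), -0.34 ± 0.19 with TRF2 in both (adjusted p = 0.131), -0.45 ± 0.20 with siLMNB1 (adjusted p = 0.0968) and 0.59 ± 0.19 with TRF2 in young cells (adjusted p = 0.295). With the offsets, the change with TRF2 in both and that with siLMNB1 passed, at -0.67 and -0.56 (adjusted p = 0.00719 and 0.0422). The offsets also reversed the sign of the change at senescence with the empty vector.

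**Figure D5:**
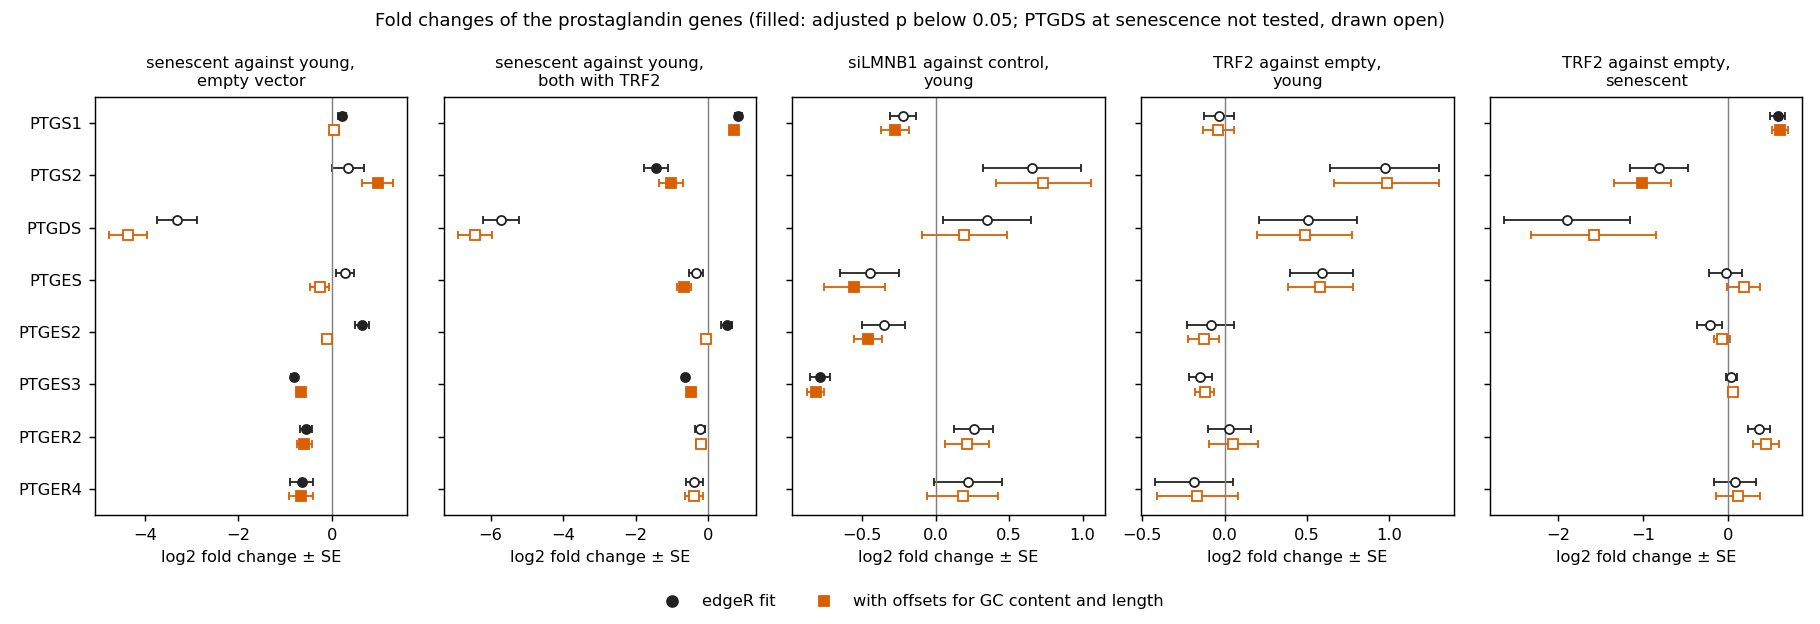
Log2 fold change with its SE (horizontal axes, which differ in range between the panels) of the 8 prostaglandin genes in 5 comparisons, in the edgeR fit (circles) and with offsets for GC content and length (squares), filled where the adjusted p was below 0.05. PTGES3 is at -0.81, -0.63 and -0.79 in the first 3 panels, and PTGES2 moves from 0.64 to -0.11 with the offsets in the first.

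PTGIS, the prostacyclin synthase (ENSG00000124212.6, chromosome 20, 49503874 to 49568137, minus strand), had 1 count over all 15 libraries. HPGD, which encodes the dehydrogenase that inactivates prostaglandins (ENSG00000164120.14, chromosome 4, 174490175 to 174523154, minus strand), had 7 counts, 3 in young empty-vector replicate 1 and 4 in young TRF2 replicate 3. Neither gene was tested, and a difference between groups was not detectable at this depth.

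PTGER2 and PTGER4 encode EP2 and EP4, the prostaglandin E2 receptors that signal through cyclic AMP. PTGER2 (ENSG00000125384.7, chromosome 14, 52314305 to 52328598, plus strand) had 40.2, 41.9 and 35.6 CPM in young cells with the empty vector, 43.4, 39.0 and 37.8 CPM with TRF2 and 44.6, 49.6 and 46.6 CPM with siLMNB1. It had 33.9, 24.7 and 21.4 CPM in senescent cells with the empty vector and 34.7, 36.3 and 32.0 CPM in senescent cells with TRF2. Each senescent library lay below its young counterparts with the same vector, by the most with the empty vector. There PTGER2 fell by 0.56 ± 0.13 on the log2 scale (adjusted p = 0.00165, edgeR), a call that held under all alternatives run. With TRF2 in both the change was -0.22 ± 0.13 (adjusted p = 0.158). The difference between these responses was not detected, at 0.33 ± 0.19 (adjusted p = 0.39), although it was 0.55 without senescent empty-vector replicate 1 (adjusted p = 0.0177). With siLMNB1 the change was 0.26 ± 0.13 (adjusted p = 0.146).

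PTGER4 (ENSG00000171522.6, chromosome 5, 40679915 to 40693735, plus strand) had 11.8, 12.4 and 11.5 CPM in young cells with the empty vector, 10.1, 10.7 and 10.6 CPM with TRF2 and 14.3, 14.1 and 13.2 CPM with siLMNB1. It had 11.7, 7.11 and 4.05 CPM in senescent cells with the empty vector and 8.25, 9.33 and 6.52 CPM with TRF2. The first senescent library lay among the young ones, so these groups overlapped. PTGER4 fell by 0.65 ± 0.24 at senescence with the empty vector (adjusted p = 0.0275, edgeR). That call was lost when only these 6 libraries were fitted (adjusted p = 0.130), and without senescent replicate 2 or 3 or young replicate 1 or 2, where the adjusted p lay between 0.0530 and 0.0724. Without senescent replicate 3 the change was -0.36. With TRF2 in both it was -0.38 ± 0.24 (adjusted p = 0.181) and with siLMNB1 0.22 ± 0.23 (adjusted p = 0.508).

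Of 28 other genes of the pathway, in 4 lists, 21 were tested. At senescence with the empty vector 12 rose, beside 32.7% of all genes, 5 fell, beside 31.9%, and 4 did not pass, with a median log2 change of 0.83 where all genes had 0.02. With 1 library left out, 10 to 13 rose and 4 to 6 fell. With the GC and length offsets PTGER1, PTGIR and PTGFR no longer passed there, while PLA2G12A, ABCC4 and PTGR3 passed as higher. With TRF2 in both 12 rose, beside 28.2% of all genes, 5 fell, beside 30.1%, and 4 did not pass, with a median of 0.45 where all genes had -0.02. The calls of PLA2G4C, AKR1B1 and PTGER1 there were each lost without at least 1 single library, among them young TRF2 replicate 2 for each of these genes. With the offsets PTGER1 changed sign there. The counts and medians of this paragraph are from the fit without offsets. The lists were chosen with earlier results of these data known. With siLMNB1, PLA2G4C, PLA2G6, TBXAS1, PTGR1 and PTGR2 rose and AKR1B1, PRXL2B, PTGFR and PTGDR2 fell, beside 16.4% and 16.1% of all genes, while 12 did not pass. The calls of PLA2G6 (without young empty-vector replicate 1 or 2 or siLMNB1 replicate 3), TBXAS1 (without young empty-vector replicate 1 or siLMNB1 replicate 2) and PTGR2 (without young empty-vector replicate 3 or siLMNB1 replicate 3) were lost when 1 library was left out.

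Of 5 phospholipases A2 tested, 4 passed at senescence with the empty vector, beside 64.7% of all genes, and 3 of them rose, beside 32.7%. PLA2G6 rose by 2.00 ± 0.35, PLA2G4C by 1.75 ± 0.26 and PLA2G15, the lysosomal enzyme, by 0.99 ± 0.10 on the log2 scale. PLA2G4A, the cytosolic enzyme best known for releasing arachidonic acid, was the 1 that fell, by 1.19 ± 0.15 (adjusted p = 2.8e-06, edgeR). PLA2G12A gave 0.02 ± 0.11, and 0.49 with the offsets (adjusted p = 1.8e-05). Of 5 other prostanoid synthases, 4 rose, beside 32.7% of all genes: the thromboxane synthase TBXAS1 by 1.38 ± 0.10, PRXL2B by 1.17 ± 0.10, AKR1B1 by 0.95 ± 0.14 and AKR1C3 by 0.83 ± 0.31. The libraries of AKR1C3 overlapped between the groups, and its call was lost without young replicate 1 or 3 and without senescent replicate 1, where the change was 0.40 (adjusted p = 0.228). CBR1 gave 0.05 ± 0.14 (adjusted p = 0.758), and -0.22 without senescent replicate 3 (adjusted p = 0.0244).

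The 5 other prostanoid receptors tested all passed, beside 64.7% of all genes. The thromboxane receptor TBXA2R rose by 1.29 ± 0.18, PTGER1, which encodes EP1, by 1.63 ± 0.22 and the prostacyclin receptor PTGIR by 0.66 ± 0.25, while PTGDR2, a prostaglandin D2 receptor, fell by 1.04 ± 0.27 and the prostaglandin F receptor PTGFR by 0.49 ± 0.17. With the offsets PTGER1, PTGIR and PTGFR were at -0.08, -0.12 and 0.07 and did not pass. The call of PTGFR was lost without young replicate 1, and that of PTGIR without young replicate 1 or 2 and without senescent replicate 3, where the change was 0.26 (adjusted p = 0.296). Of 6 genes of transport and inactivation 4 passed, again beside 64.7% of all genes. The prostaglandin transporter SLCO2A1 rose by 1.93 ± 0.46 and the prostaglandin reductase PTGR1 by 4.26 ± 0.11. PTGR1 went from a mean of 10.1 to 194 CPM (adjusted p = 2.8e-14), and its change was 4.30 with TRF2 in both. PTGR2 fell by 3.20 ± 0.39 and CBR3 by 1.69 ± 0.41, and other annotated genes overlap 35% and 71.1% of the exonic bases of the pair. Summed over the empty-vector libraries, PTGR2 had only 149 counts in young and 15 in senescent cells. CBR3 had 131 and 38, and SLCO2A1 39 and 142. ABCC4 and PTGR3 gave 0.22 ± 0.14 and 0.18 ± 0.10, and both passed with the offsets, at 0.48 and 0.42, and without senescent replicate 3, at 0.40 and 0.27.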

How the data were processed

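RNA from 15 libraries of MRC-5 cells was measured as counts of reads per gene. The authors deposited these counts without normalization. Per the labels and the submitters' processing notes, reads were processed with Trimmomatic, STAR and DESeq2 on GRCh38. The annotation and strand setting used for counting are not given in the sources used here. Every column matched a sample label. Genes were named and placed with GENCODE 44, and promoter sequences came from RefSeq (GRCh38.p14, 9 of 10 genes matched).

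After filterByExpr and TMM normalization, a single model with 5 group means was fitted to the counts in edgeR 4.0.16 (R 4.3.3, limma 3.58.1). Tests were quasi-likelihood F tests, two-sided, adjusted by Benjamini-Hochberg over all 15799 genes tested. CPM are TMM-normalized. Calls had an adjusted p below 0.05, and DEGs also changed by 1 or more on the log2 scale at senescence, or by 0.58 with siLMNB1, thresholds taken from the study. GC and length offsets came from a loess curve (span 0.3, prior count 1) in each library. DESeq2 1.42.0 served as an alternative. Exact intervals (Clopper-Pearson, 95%) and figures were made in Python 3.11.15 (scipy 1.17.1, pandas 2.3.3, numpy 2.4.6). The edgeR step was tested on simulated data.

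The genes and lists were chosen with earlier results of these data known. Named were the 10 genes, in each other list the 3 tested genes with the largest change at senescence with the empty vector and those behind counts of 5 or fewer, the tested genes within 100 kb of PTGDS, the 3 protein-coding genes nearest in profile to PTGDS and to PTGS2, and TERF2 and LMNB1.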

Additional observations from a re-analysis of the deposited data

Results flagged for a closer look

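The response of PTGS1 to TRF2 differed between senescent and young cells in a test of the difference itself, an interaction term of 0.61 ± 0.13 on the log2 scale (adjusted p = 0.0336, edgeR). PTGS1 was higher with TRF2 in all 3 senescent libraries, by 0.58, and was at -0.03 in young cells. The adjusted p was above 0.05 when any 1 of 10 of the 12 libraries involved was left out, with changes between 0.57 and 0.67, and it was 0.0782 when only those 12 libraries were fitted. With the GC and length offsets the interaction was 0.65. Young cells carried the TRF2 vector for days and senescent cells over many doublings, so time with the vector and state cannot be told apart.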

How the results depend on the processing

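Besides the edgeR fit, 8 alternatives and the omission of each of the 15 libraries were run, of which the restriction to genes without exonic overlap with a gene absent from the table was chosen after seeing the data and leaves PTGDS out. For single prostaglandin genes 625 values kept their direction and side of the threshold, 40 passed it, 25 lost it, 21 changed sign and 2 (PTGDS at senescence with the empty vector, -4.37 and -4.33 with offsets) moved by more than the replicate spread. With offsets for GC content and length, without and with the replicate block, PTGES2 at senescence became -0.11 and -0.12 with the empty vector and -0.064 with TRF2 in both, and its interaction 0.049 and 0.053. PTGES became -0.26 at senescence with the empty vector and 0.18 and 0.19 for TRF2 in senescent cells. Among the other pathway genes, at senescence with the empty vector, the same fits gave -0.085 and -0.080 for PTGER1, 0.069 and 0.070 for PTGFR, -0.12 and -0.13 for PTGIR, -0.15 for CBR1, -0.017 and -0.022 for NR4A1, -0.12 and -0.13 for PER1 and, without the block, 6.7e-05 for LTA4H; with TRF2 in both they gave -0.54 for PTGER1 and -0.28 for PER1. For all of these the cause was not tested.

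The number of prostaglandin genes called at senescence with the empty vector was 3 when only the libraries compared were fitted. With siLMNB1, where 1 was called, it was 3 without the filter, 6 with only the libraries compared, 4 with offsets, 3 with offsets and block and 2 with DESeq2, and the number of DEGs was 2 without the filter and with only the libraries compared. For TRF2 in young cells 1 gene, PTGS2, was called without the filter and with only the libraries compared. For TRF2 in senescent cells, where 1 was called, the number was 3 without the filter, 0 with only the libraries compared (edgeR) and 2 with offsets, with or without the block, and for the interaction it was 3, 0 and 2 in the same order, and 2 with DESeq2. Fitted on only the libraries compared, 2 of all genes were called for TRF2 in senescent cells, against 1782, 8 for the interaction, against 179, and 474 for TRF2 in young cells, against 28.

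With 1 library left out, 3 to 5 genes were called at senescence with the empty vector (3 without young replicate 1 or 2) and 0 to 1 were DEGs (PTGER4, without senescent replicate 1), 1 to 5 were called for TRF2 in senescent cells and 0 to 4 for the interaction, the highest of both without senescent empty-vector replicate 1. Other pathway genes called higher with siLMNB1 numbered 3 to 5. The log2 change ranged from -0.30 to 0.71 for PTGS2, -0.078 to 0.13 for PLA2G12A and -0.22 to 0.17 for CBR1 at senescence with the empty vector. For TRF2 in senescent cells it ranged from -0.090 to 0.040 for PTGES, -0.34 to 0.043 for PTGES2 and -0.23 to 0.54 for PTGER4, for TRF2 in young cells from -0.051 to 0.080 for PTGER2, and for the interaction from -0.25 to 0.14 for PTGES2 and -0.024 to 0.72 for PTGER4.

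The replicate numbers do not pair the samples: deviations of same-numbered samples correlated between -0.0945 and 0.0615. With the replicate block the numbers of prostaglandin genes called were 5, 4, 1, 0, 1 and 1 in the order of the 6 comparisons, the same as without it, and of the other pathway genes PTGIR passed at senescence with TRF2 in both, at -0.63 (adjusted p = 0.0342, edgeR). Depth limits PTGDS in senescent cells, PTGIS and HPGD, which had few or no counts there. The GC slopes of the senescent libraries, and their label as a reanalysis, limit each comparison of senescent with young cells.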

Other observations

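Of 9 tested genes linked to cyclic AMP, the second messenger of EP2 and EP4, 7 passed at senescence with the empty vector, beside 64.7% of all genes (edgeR), of which 4 rose, beside 32.7%, and 3 fell, beside 31.9%. NR4A2, an orphan nuclear receptor, rose by 1.24 on the log2 scale, and NR4A1, PER1 and CRTC2 rose by 0.75, 0.77 and 0.81. FOS fell by 2.08, the phosphodiesterase PDE4D by 1.75 and CREM by 0.56, while NR4A3 and PDE4B gave -0.36 and 0.19. With the GC and length offsets NR4A1, PER1, CRTC2 and CREM no longer passed, and NR4A2, FOS and PDE4D did. With TRF2 in both 7 passed, beside 58.3% of all genes. PER1 and CRTC2 were the 2 that rose, beside 28.2%, and 5 fell, beside 30.1%, namely FOS, PDE4D, CREM, PDE4B and NR4A1. The calls of PER1 and NR4A1 there were lost without any 1 of 3 libraries each, young TRF2 replicate 1 being among them for both.

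Of 7 genes of the lipoxygenase branch, which uses arachidonic acid to make leukotrienes and other lipids, ALOX12 and LTA4H were tested. ALOX12 rose by 2.18 at senescence with the empty vector and by 1.39 with TRF2 in both, and LTA4H fell by 0.43 and 0.34, values that did not pass with the offsets. Between senescent groups 3 of the 21 other pathway genes tested passed, beside 11.3% of all genes. PTGIR was lower with TRF2 by 1.40 and PTGER1 by 0.94 (adjusted p = 0.0032 and 0.010, edgeR), and TBXAS1 was higher by 0.55 (adjusted p = 0.0022).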
